A study of Mus musculus with 40 samples.

Results

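Brown fat identity transcription factors are described here, as 10 genes taken by symbol from the 20295 genes counted in brown adipose tissue (BAT). They are *Prdm16*, the EBF family members *Ebf1*, *Ebf2* and *Ebf3*, the homeobox, zinc finger and T-box genes *Zic1*, *Lhx8*, *Tbx15* and *Tbx1*, the interferon regulatory factor *Irf4* and the zinc finger gene *Zfp516*. The question was whether these factors change when BAT is driven to a thermogenic state, either by a receptor expressed in brown adipocytes or by a drug. Of the 10, 9 passed the filter on low counts. *Tbx1* did not, with 103 counts over all 40 libraries.

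Poly(A) RNA of BAT was sequenced from 40 male mice kept at 29 °C, near thermoneutrality, in 8 groups of 5. In the first cohort, 13 to 19 weeks old, C-3BO mice carried a *Gpr3* transgene targeted to *ROSA26* under the CAG promoter and switched on by *Ucp1*-Cre, so that this constitutively active Gs-coupled receptor is made in brown and beige adipocytes from early life. Their controls were littermates with either the *Gpr3* allele without Cre or Cre without the allele, and which of these each control carried was not used here. Both genotypes were fed chow, or were kept for 7 days on a high-fat diet (HFD), 60 kcal% of it fat. The second cohort comprised 15-week-old control littermates of a separate *Gpr3* line (I-3BO), which received CL-316,243 (CL), an agonist of the β3-adrenergic receptor, at 1 mg/kg or saline at 10 μL/g. The injections were given daily for 9 days, on chow or with the same 7 days of HFD, beginning 2 days before the diet was changed, and tissue was taken the day after the last injection. The labels do not say that same-numbered mice are littermates, and p-values measure the spread between these mice.

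Between 849126 and 15260516 counts per library fell on the listed genes. Levels are given in CPM, counts per library total scaled by a TMM factor, and 3 counts, the smallest level taken as shown, correspond to 0.206 to 3.01 CPM. The transgene followed the labels. *Gpr3* lay at 266 to 463 CPM in chow C-3BO and 688 to 918 CPM in HFD C-3BO mice, and at 0.743 CPM or less in their controls, and in the injected cohort it was highest in chow CL replicate 3 at 9.15 CPM. Markers of brown adipocytes summed to at least 11900 CPM in every library. The 12 shallowest libraries, with at most 7284129 counts, comprised both injected HFD groups and 2 HFD C-3BO libraries, replicates 4 and 5. They also carried transcripts of liver and of the epididymis, the latter at 9.02 to 61.5 CPM in sum against at most 0.119 CPM in the other libraries. In the injected cohort this set coincides with the diet, so that a diet effect there cannot be told apart from these libraries. Replicate 5 of chow CL stood apart from its group, with *Ucp1* at 1640 CPM against 5940 to 8990 CPM in the other 4 mice.

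PRDM16 is a transcriptional coregulator that holds precursor cells to the brown adipocyte fate and keeps muscle and white fat genes low. The EBF proteins bind DNA as dimers at adipocyte enhancers. EBF2 marks brown precursors and recruits PPARγ to brown-selective sites, and EBF1, also known as a B lymphocyte factor, takes part in adipocyte differentiation. *Zic1*, *Lhx8*, *Tbx15* and *Tbx1* are developmental genes used to tell classical brown, white and beige depots apart. IRF4 is induced by fasting and cold and acts with PGC-1α on thermogenic genes, and ZFP516 is a cold-induced activator of *Ucp1*, the uncoupling protein that makes heat in brown fat mitochondria.

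*Ebf1* and *Ebf3* moved in opposite directions, as described below, and the DNA just before their starts is shown for this reason. Each sequence is the 250 bases upstream of the start of the counted RefSeq transcript in mm9, 5′ to 3′ on the strand of the gene. Capitals mark any match to TGACG, the short form of the cAMP response element, or to a pair of EBF half-sites, CCCNNGGG, searched on both strands.
Ebf1 (NM_007897), chr11:44431352-44431601, plus strand: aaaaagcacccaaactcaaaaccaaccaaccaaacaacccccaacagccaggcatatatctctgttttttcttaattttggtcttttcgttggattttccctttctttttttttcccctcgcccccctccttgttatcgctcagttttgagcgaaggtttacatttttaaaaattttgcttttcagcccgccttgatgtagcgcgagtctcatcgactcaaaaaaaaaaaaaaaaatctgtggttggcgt
Ebf3 (NM_001113414), chr7:144506129-144506378, minus strand: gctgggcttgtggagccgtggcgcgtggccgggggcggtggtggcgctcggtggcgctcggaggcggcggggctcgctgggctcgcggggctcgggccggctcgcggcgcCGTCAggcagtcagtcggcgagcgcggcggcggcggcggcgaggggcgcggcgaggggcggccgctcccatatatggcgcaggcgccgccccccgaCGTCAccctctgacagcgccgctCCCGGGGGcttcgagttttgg
The *Ebf1* window held 40% G and C and no match, and the *Ebf3* window held 80% G and C with 2 matches to TGACG and 1 to CCCNNGGG, against a median of 56.4% G and C over the windows of all genes. In 20292 such windows with every base known, TGACG or its reverse complement occurred at least once in 21.2% and CCCNNGGG at least once in 14%. The full cAMP response element, TGACGTCA, occurred in 2.14% of them and in none of the windows of the 10 factors. A match describes letters only, and the share of windows of like G and C content with as many matches was not counted.

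The counted transcript of *Ebf1* spans chr11:44431602-44821598, that of *Ebf2* chr14:67852129-68049789, that of *Ebf3* chr7:144385354-144506128 and that of *Prdm16* chr4:153690234-154010982 in mm9. The EBF paralogues could be told apart over short stretches, with 0 of 6125 runs of 50 bases in the annotated protein-coding *Ebf1* transcripts occurring exactly in another annotated EBF transcript. The same count was 0 of 4293 for *Ebf2* and 0 of 5380 for *Ebf3*. The listed gene *Gm6878* lies inside the span of *Ebf2*, and 60 exon bases of *Zic1* are shared with *Zic4* on the opposite strand. Whether counting used the strand is not stated.

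Per kilobase of counted exon, the factors covered a wide range of levels. Averaged over the 40 libraries, *Ebf1* reached 32.6 CPM per kilobase, *Ebf2* 27.2 and *Ebf3* 24.3. *Prdm16* followed at 7.91, *Irf4* at 6.07, *Zic1* at 4.83, *Zfp516* at 4.23, *Lhx8* at 3.06 and *Tbx15* at 2.35 CPM per kilobase, and *Tbx1* was lowest at 0.153.

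Among these factors, *Ebf1* fell and *Ebf3* rose in each of the 4 comparisons of C-3BO with control or CL with saline, called treatment comparisons here, and no other factor changed in more than 1 of them. With CL on chow both calls were lost when only the libraries of that comparison were fitted (edgeR adjusted p = 0.0792 for *Ebf1* and 0.116 for *Ebf3*). The test was the quasi-likelihood test of edgeR on 13277 genes, with Benjamini-Hochberg adjustment, and a gene is said to have risen or fallen at an adjusted p under 0.05. In C-3BO against control mice on chow, 3 of the 9 tested factors rose (*Prdm16*, *Ebf2* and *Ebf3*) and 3 fell (*Ebf1*, *Lhx8* and *Tbx15*), against 15.8% and 15.9% of all tested genes. Only *Lhx8* and *Tbx15* also passed a log2 fold change of 1 in either direction, as 7.19% of all tested genes did. On HFD, 1 factor rose and 1 fell in C-3BO mice, against 19.3% and 15.5% of genes. For CL against saline, 1 rose and 1 fell on chow, against 9.16% and 6.13% of genes. The same numbers held for CL on HFD, where 12.7% of genes rose and 10.8% fell. No factor passed the fold limit in the last 3 comparisons, which 7.43%, 2.58% and 4.11% of genes did, in that order. Of 9 factors, 1 in each direction is near these backgrounds. The share of all tested genes that moved the same way in all 4 comparisons was not counted. The median size of the log2 fold change of the 9 factors was 0.72, 0.41, 0.52 and 0.28 in the 4 comparisons, against 0.28, 0.3, 0.21 and 0.26 over all tested genes. *Ucp1* rose by 2.38 ± 0.28 and 1.52 ± 0.27 (log2 fold change ± SE) with C-3BO and by 1.9 ± 0.27 and 1.74 ± 0.27 with CL, on chow and HFD. Scaling by library totals alone brought the median log2 fold change of all genes to -0.23, -0.19, -0.15 and -0.15 in the 4 comparisons, and the share of called genes that rose from 49.8%, 55.3%, 59.9% and 54% to 20.2%, 30.1%, 26.6% and 27.9%. *Ebf1* and *Ebf3* kept their directions under that scaling, while *Ebf2* with C-3BO on chow (0.19, edgeR adjusted p = 0.24) and *Ebf3* with CL on chow (0.25, edgeR adjusted p = 0.135) no longer passed and *Zfp516* with C-3BO on chow changed sign to -0.17.

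**Figure D1:**
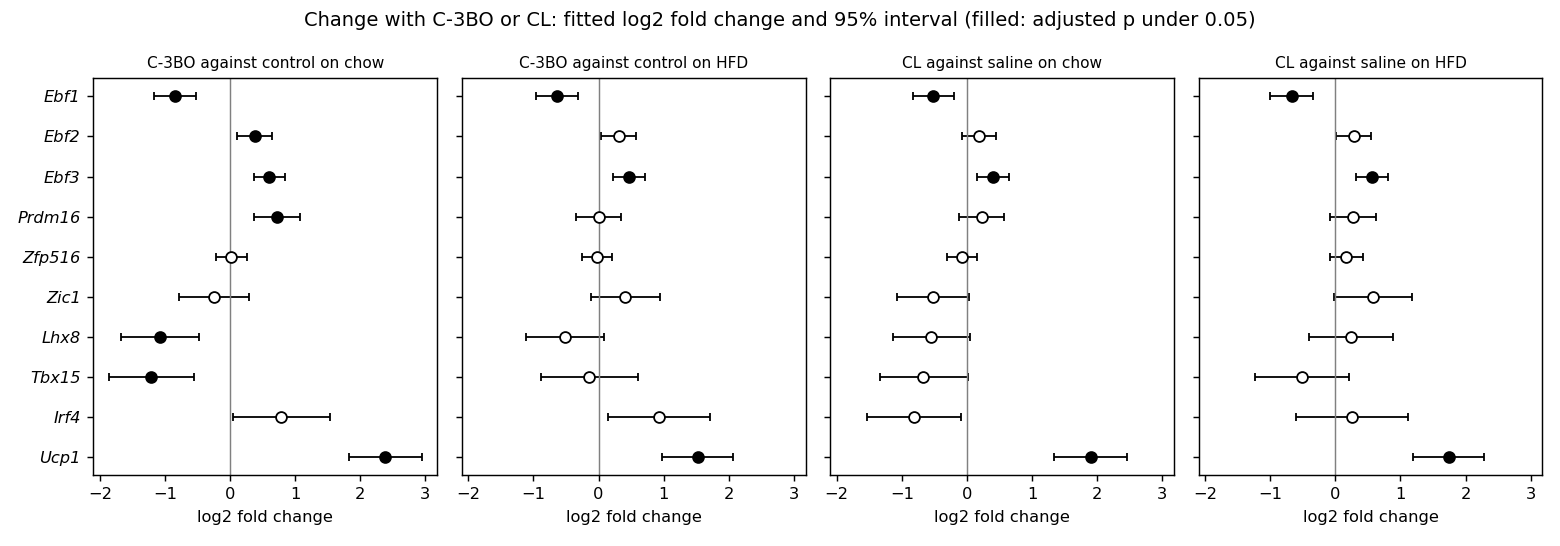
Fitted log2 fold change (x axis) of the 9 tested factors and *Ucp1* (y axis) in the 4 treatment comparisons of 5 against 5 libraries, with 95% intervals and with filled points where the edgeR adjusted p is under 0.05. *Ebf1* lies left of 0 and *Ebf3* right of 0 as filled points in every panel, and *Ucp1* lies between 1.52 and 2.38.

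*Ebf1* was lower with C-3BO and with CL. In chow control mice it lay at 195, 200, 157, 265 and 215 CPM, and in chow C-3BO mice at 102, 120, 111, 133 and 108 CPM. All 5 C-3BO mice were below all 5 controls, and the fall was 0.85 ± 0.16 on the log2 scale (edgeR adjusted p = 8.12e-05). This corresponds to 0.556 times the control level. In bulk tissue, fewer cells of a type and less RNA per cell cannot be told apart.

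On HFD, *Ebf1* lay at 286, 230, 219, 194 and 163 CPM in controls and at 185, 136, 136, 125 and 118 CPM in C-3BO mice. Only C-3BO replicate 1, at 185 CPM, reached into the range of the controls, and the log2 fold change was -0.64 ± 0.16 (edgeR adjusted p = 0.00152). Without the shallow C-3BO replicates 4 and 5 it was -0.52 ± 0.18 (edgeR adjusted p = 0.0334).

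In the injected cohort, *Ebf1* lay at 235, 245, 259, 207 and 134 CPM in chow saline mice and at 166, 130, 125, 127 and 208 CPM in chow CL mice. The groups overlapped through saline replicate 5 at 134 CPM and CL replicates 1 and 5 at 166 and 208 CPM, and the log2 fold change was -0.52 ± 0.16 (edgeR adjusted p = 0.0206). Without CL replicate 5, whose *Ucp1* was low, it was -0.66 ± 0.16 (edgeR adjusted p = 0.00305). Leaving out chow CL replicate 2, 3 or 4 or chow saline replicate 3 ended the call, with edgeR adjusted p of 0.0634, 0.0638, 0.0705 and 0.0571. It also ended with a replicate block (edgeR adjusted p = 0.174). On HFD, *Ebf1* lay at 201, 178, 189, 158 and 220 CPM with saline and at 119, 136, 122, 101 and 119 CPM with CL. These groups did not overlap, and the log2 fold change was -0.67 ± 0.16 (edgeR adjusted p = 0.00196).

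*Ebf3* moved the opposite way. It lay at 89.1, 98, 85.9, 87.6 and 103 CPM in chow control mice and at 152, 137, 122, 135 and 158 CPM in chow C-3BO mice. Every C-3BO mouse was above every control, and the rise was 0.6 ± 0.12 on the log2 scale (edgeR adjusted p = 0.000185), or 1.52 times the control level. On HFD, it lay at 96.1, 101, 119, 126 and 102 CPM in controls and at 190, 127, 140, 143 and 150 CPM in C-3BO mice. The highest control, at 126 CPM, was just below the lowest C-3BO mouse, at 127 CPM. The log2 fold change was 0.46 ± 0.12 (edgeR adjusted p = 0.00265).

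With CL on chow, *Ebf3* lay at 72.1, 105, 111, 113 and 88.5 CPM in saline mice and at 125, 154, 134, 142 and 90.8 CPM in CL mice. CL replicate 5 again sat with the saline mice, and the log2 fold change was 0.4 ± 0.12 with it (edgeR adjusted p = 0.0183) and 0.51 ± 0.11 without it (edgeR adjusted p = 0.00165). The call ended without chow saline replicate 1 or chow CL replicate 2 or 4, with edgeR adjusted p of 0.0977, 0.0753 and 0.0579, and with a replicate block (0.0839). On HFD, *Ebf3* lay at 86.8, 111, 105, 91.2 and 110 CPM with saline and at 153, 169, 150, 143 and 133 CPM with CL, with no overlap. The log2 fold change was 0.56 ± 0.12 (edgeR adjusted p = 0.000847).

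*Ebf2* had a smaller difference of the same sign as *Ebf3* in each comparison, and it passed the test once. On chow it lay at 130, 137, 95.1, 119 and 125 CPM in controls and at 134, 167, 134, 177 and 176 CPM in C-3BO mice. The groups met between 134 and 137 CPM, and the log2 fold change was 0.38 ± 0.13 (edgeR adjusted p = 0.0241). That call ended when chow control replicate 3 (edgeR adjusted p = 0.0851) or chow C-3BO replicate 2, 4 or 5 (0.0505, 0.0695 and 0.0637) was left out. In the other 3 comparisons the log2 fold change of *Ebf2* was 0.31 ± 0.13 with C-3BO on HFD, 0.19 ± 0.13 with CL on chow and 0.28 ± 0.13 with CL on HFD, with edgeR adjusted p of 0.0631, 0.363 and 0.132.

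**Figure D2:**
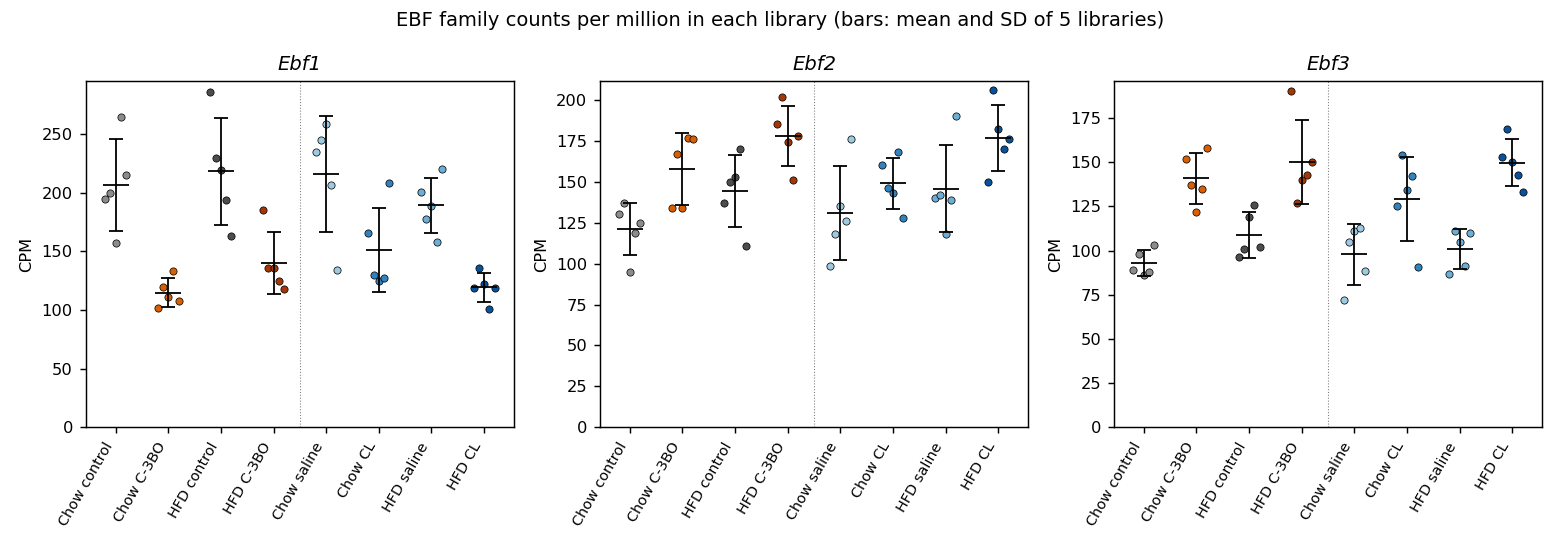
CPM (y axis, from 0) of *Ebf1*, *Ebf2* and *Ebf3* in each of the 5 libraries of the 8 groups (x axis), with a bar at the mean and error bars of 1 SD. Mean *Ebf1* is 206 CPM in chow control and 115 CPM in chow C-3BO mice, and mean *Ebf3* is 92.6 and 141 CPM in the same groups.

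Across the 8 groups, mean *Ebf1* descended from HFD control (218 ± 45.5 CPM, SD, n = 5) through chow saline, chow control and HFD saline (189 ± 23.3 CPM) to chow CL (151 ± 36 CPM), HFD C-3BO, HFD CL and chow C-3BO (115 ± 12.1 CPM). The 4 groups with neither the transgene nor CL were thus the 4 highest, and the step from HFD saline to chow CL, 38.4 CPM, was the only gap between neighbours that exceeded the larger of their SDs. For *Ebf3* the 4 groups with C-3BO or CL were the highest, from HFD C-3BO (150 ± 23.6 CPM) to chow CL (129 ± 24.1 CPM), and the control and saline groups ran from HFD control (109 ± 13 CPM) to chow control (92.6 ± 7.28 CPM). No gap between neighbours exceeded the larger SD for *Ebf3*, nor for *Ebf2*.

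The proportions of *Ebf1*, *Ebf2* and *Ebf3* shifted with these changes. The ratio of *Ebf3* to *Ebf1* counts needs no scaling between libraries and was chosen after the values were seen. Its geometric mean was 0.454 in chow control and 1.23 in chow C-3BO mice, and 0.504 and 1.07 in HFD control and HFD C-3BO mice. For saline and CL the geometric mean was 0.459 and 0.862 on chow and 0.533 and 1.25 on HFD. *Ebf1* had more counts than *Ebf3* in all 20 control and saline libraries, including those on HFD, where *Ucp1* was also higher than on chow. *Ebf3* had more in 17 of the 20 libraries with C-3BO or CL, the exceptions being HFD C-3BO replicate 2 (0.938), chow CL replicate 1 (0.754) and chow CL replicate 5 (0.437). Of the counts of these genes together, without *Ebf4*, *Ebf1* took 48.9% ± 4.23 in chow control and 27.8% ± 2.45 in chow C-3BO mice (SD, n = 5). In the same groups *Ebf2* took 28.9% ± 2.64 and 38% ± 2.41, and *Ebf3* 22.2% ± 2.49 and 34.2% ± 3.41.

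Between groups, high *Ucp1* did not always go with a high ratio. HFD control replicate 4 reached 9440 CPM of *Ucp1*, above the 5380 to 7540 CPM of chow C-3BO mice. Its ratio was 0.648, below the 1.01 to 1.49 of that group. Within the HFD controls this ratio was the highest, and the lowest, 0.337, belonged to the mouse with the lowest *Ucp1*, 2570 CPM. These libraries were singled out after their values were seen and their differences were not tested. Over the 40 libraries, log2 CPM of *Ucp1* correlated with *Ebf3* at r = 0.832, *Ebf2* at 0.704, *Prdm16* at 0.7 and *Ebf1* at -0.687. With group means taken out these were 0.456, 0.28, 0.496 and -0.404. The other tested factors had r from -0.586 (*Tbx15*) to 0.266 (*Zic1*).

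Markers of other cell types were examined beside these results. Of 6 B cell markers, 5 were among the counted genes, and they summed to between 2.33 and 9.08 CPM in all 40 libraries. Of the 4 that could be tested, 0 fell in any treatment comparison, and *Cd79b* rose with CL on HFD. Of 7 markers of preadipocytes and stroma, *Pdgfrb* fell with C-3BO on both diets, none passed the test with CL on chow, and *Pdgfra*, *Col1a1* and *Dcn* fell with CL on HFD. Their summed level ranged from 480 to 773 CPM in chow control and from 413 to 722 CPM in chow C-3BO mice, and from 474 to 613 CPM in HFD controls and 380 to 474 CPM with C-3BO on HFD. Among injected mice it ranged from 637 to 1210 CPM with saline and 541 to 1030 CPM with CL on chow, and from 909 to 1410 CPM and 564 to 940 CPM on HFD. Of 5 endothelial markers, *Pecam1* and *Cdh5* fell with C-3BO on both diets and *Tie1* on HFD alone, with median log2 fold changes of -0.28 on chow and -0.38 on HFD. With CL none of them passed on chow (median 0.08), and *Pecam1* and *Emcn* rose on HFD (0.35). Of 6 macrophage markers, 5 were tested and none passed on chow. On HFD *Csf1r* fell with C-3BO and with CL and *Cd68* with CL, at medians of -0.62 and -0.83. Of 5 white adipocyte markers, 4 were tested. *Lep* fell with C-3BO on both diets, *Nnmt* and *Agt* rose with C-3BO on HFD, and *Nnmt* rose with CL on both diets. The part of stromal, endothelial, macrophage and white adipocyte transcripts in the EBF changes was not tested.

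*Prdm16* rose with C-3BO on chow and, in the main fit, in no other treatment comparison. It lay at 41.4, 36.6, 52.7, 41.6 and 59.6 CPM in chow control mice and at 65.7, 74.5, 59.1, 90.5 and 90.5 CPM in chow C-3BO mice. The groups touched at 59.1 and 59.6 CPM, and the log2 fold change was 0.72 ± 0.17 (edgeR adjusted p = 0.00138). On HFD the controls, at 98, 81.2, 61, 111 and 77 CPM, spread around the C-3BO mice, at 86.4, 78.1, 81.1, 90.5 and 91.5 CPM. The log2 fold change there was 0 with a 95% interval from -0.35 to 0.34 (edgeR adjusted p = 0.99). The difference between the C-3BO effect on HFD and that on chow, -0.72 ± 0.24, did not pass the test (edgeR adjusted p = 0.108).

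With CL, *Prdm16* gave log2 fold changes of 0.23 ± 0.17 on chow and 0.27 ± 0.18 on HFD (edgeR adjusted p = 0.4 and 0.286). Without chow CL replicate 5, the value on chow was 0.4 ± 0.15 and did not pass (edgeR adjusted p = 0.0515). On HFD it passed in 1 of 18 alternatives, the fit of only the libraries of that comparison (0.26 ± 0.08, edgeR adjusted p = 0.0292). Chow CL replicate 5, at 31.1 CPM, had the lowest *Prdm16* of all 40 libraries, while the other 4 chow CL mice lay between 62.3 and 75.2 CPM and chow saline mice between 44 and 71.6 CPM. HFD saline mice lay between 51.8 and 60.2 CPM and HFD CL mice between 59 and 73.5 CPM.

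*Zfp516* varied little between groups. Its group means lay between 27.4 CPM in HFD saline and 35.5 CPM in chow saline mice, and none of the 4 treatment comparisons passed the test. The log2 fold changes were 0.02 and -0.03 with C-3BO on chow and HFD and -0.07 and 0.17 with CL, and their 95% intervals together covered -0.3 to 0.42.

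Of the developmental genes, *Lhx8* and *Tbx15* fell with C-3BO on chow. *Lhx8* lay at 11.4, 10.2, 8.84, 8.89 and 6.39 CPM in chow control mice and at 5.43, 3.59, 5.02, 3.99 and 3.72 CPM in chow C-3BO mice, without overlap. The log2 fold change was -1.08 ± 0.29 (edgeR adjusted p = 0.00463), on counts of 26 to 138 per library. In the other 3 treatment comparisons it was -0.51, -0.55 and 0.24, with edgeR adjusted p of 0.183, 0.211 and 0.632, and the groups overlapped in each.

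*Tbx15* lay at 8.01, 14.4, 29.7, 25.8 and 26.4 CPM in chow control mice and at 4.97, 10.4, 12.3, 4.21 and 12.9 CPM in chow C-3BO mice. Control replicate 1, at 8.01 CPM, fell among the C-3BO mice, and the log2 fold change was -1.21 ± 0.32 (edgeR adjusted p = 0.00342). In the other groups it was low, with means between 3.52 ± 1.71 CPM in HFD C-3BO and 9.05 ± 4.28 CPM in HFD saline mice (SD, n = 5). Its changes with C-3BO on HFD (-0.14 ± 0.37), CL on chow (-0.67 ± 0.33) and CL on HFD (-0.51 ± 0.35) did not pass the test (edgeR adjusted p = 0.803, 0.173 and 0.316), although all chow CL mice, at 2.85 to 6.47 CPM, lay below all chow saline mice, at 6.62 to 10.5 CPM.

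*Tbx15* is also expressed in skeletal muscle, and its level moved with muscle transcripts. The 7 skeletal muscle markers, such as *Acta1* and *Ckm*, summed to 655 to 8480 CPM in chow control, 335 to 3240 CPM in chow C-3BO, 4.61 to 178 CPM in HFD control and 4.53 to 61.2 CPM in HFD C-3BO animals. The chow control mouse with the lowest *Tbx15*, replicate 1, also had the lowest muscle sum of its group. In the injected cohort the sums were 9.21 to 2180 CPM with saline and 9.24 to 120 CPM with CL on chow, and 16 to 1700 CPM and 26.2 to 566 CPM on HFD. With the muscle sum as a covariate, a fit added after the data were seen, the log2 fold change of *Tbx15* with C-3BO on chow was -1.04 ± 0.3 (edgeR adjusted p = 0.00759). With CL on chow, where 6 of the 7 muscle markers fell at a median of -4.04, the same fit brought *Tbx15* to -0.35 ± 0.33 (edgeR adjusted p = 0.529).

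*Zic1*, a marker of classical brown fat, did not pass the test in any treatment comparison. Its log2 fold changes were -0.25 ± 0.27 and 0.41 ± 0.26 with C-3BO on chow and HFD and -0.52 ± 0.27 and 0.58 ± 0.29 with CL (edgeR adjusted p = 0.507, 0.218, 0.197 and 0.158). Both treatments thus had values of opposite sign on the 2 diets, but neither difference passed the test, with 0.66 ± 0.37 for C-3BO (edgeR adjusted p = 0.408) and 1.1 ± 0.4 for CL (edgeR adjusted p = 0.369).

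*Tbx1*, which is used as a marker of beige adipocytes, was at the edge of detection. It had counts in 33 of 40 libraries, between 0 and 12 per library, and its group means lay between 0.106 CPM in HFD CL and 0.586 CPM in chow control mice. It was removed by the filter on low counts. In a fit without that filter it fell with HFD in control mice by 1.92 ± 0.69 on the log2 scale (edgeR adjusted p = 0.0375), from 0.224 to 1.06 CPM on chow to between 0 and 0.275 CPM on HFD. It did not pass there in any treatment comparison (edgeR adjusted p = 0.683, 0.403, 1 and 0.144).

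*Irf4* had the largest spread within a group, relative to its mean, of the tested factors. It lay at 21.3, 19.7, 14.1, 31.8 and 18.1 CPM in chow control mice and at 24, 16.8, 21.6, 95.5 and 23.3 CPM in chow C-3BO mice. Apart from C-3BO replicate 4, at 95.5 CPM, the C-3BO mice lay within the range of the controls, and the log2 fold change of 0.78 ± 0.37 did not pass the test (edgeR adjusted p = 0.0995). Without that library it was 0.01 (edgeR adjusted p = 0.988). On HFD it lay at 10.4, 10.3, 14.5, 14.5 and 9.89 CPM in controls and at 12.5, 47.1, 19.6, 19.6 and 13.1 CPM in C-3BO mice, with a log2 fold change of 0.93 ± 0.38 (edgeR adjusted p = 0.0573). Without the shallow C-3BO replicates 4 and 5 this value was 1.15 ± 0.43 and passed (edgeR adjusted p = 0.0446), and without C-3BO replicate 2, the mouse at 47.1 CPM, it was 0.44 and did not pass (edgeR adjusted p = 0.413).

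In the injected cohort on chow, *Irf4* lay at 127, 33.2, 83.4, 61.1 and 33 CPM with saline and at 29.3, 32.7, 52.3, 33.5 and 43.6 CPM with CL. The log2 fold change was -0.81 ± 0.35 (edgeR adjusted p = 0.114), and on HFD it was 0.26 ± 0.42 (edgeR adjusted p = 0.713). The difference between the C-3BO and CL effects on chow was 1.6 ± 0.51 and did not pass (edgeR adjusted p = 0.0511). Without chow C-3BO replicate 4 it was 0.83 ± 0.42 (edgeR adjusted p = 0.289), and without chow saline replicate 2 it was 1.81 ± 0.51 and passed (edgeR adjusted p = 0.0248). The difference also passed without chow C-3BO replicate 1, 2, 3 or 5 (edgeR adjusted p = 0.0466, 0.0321, 0.0297 and 0.0438). The same held without chow control replicate 4, chow saline replicate 5 or chow CL replicate 3 (0.0339, 0.03 and 0.0384), and it did not pass without any other single library.

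**Figure D3:**
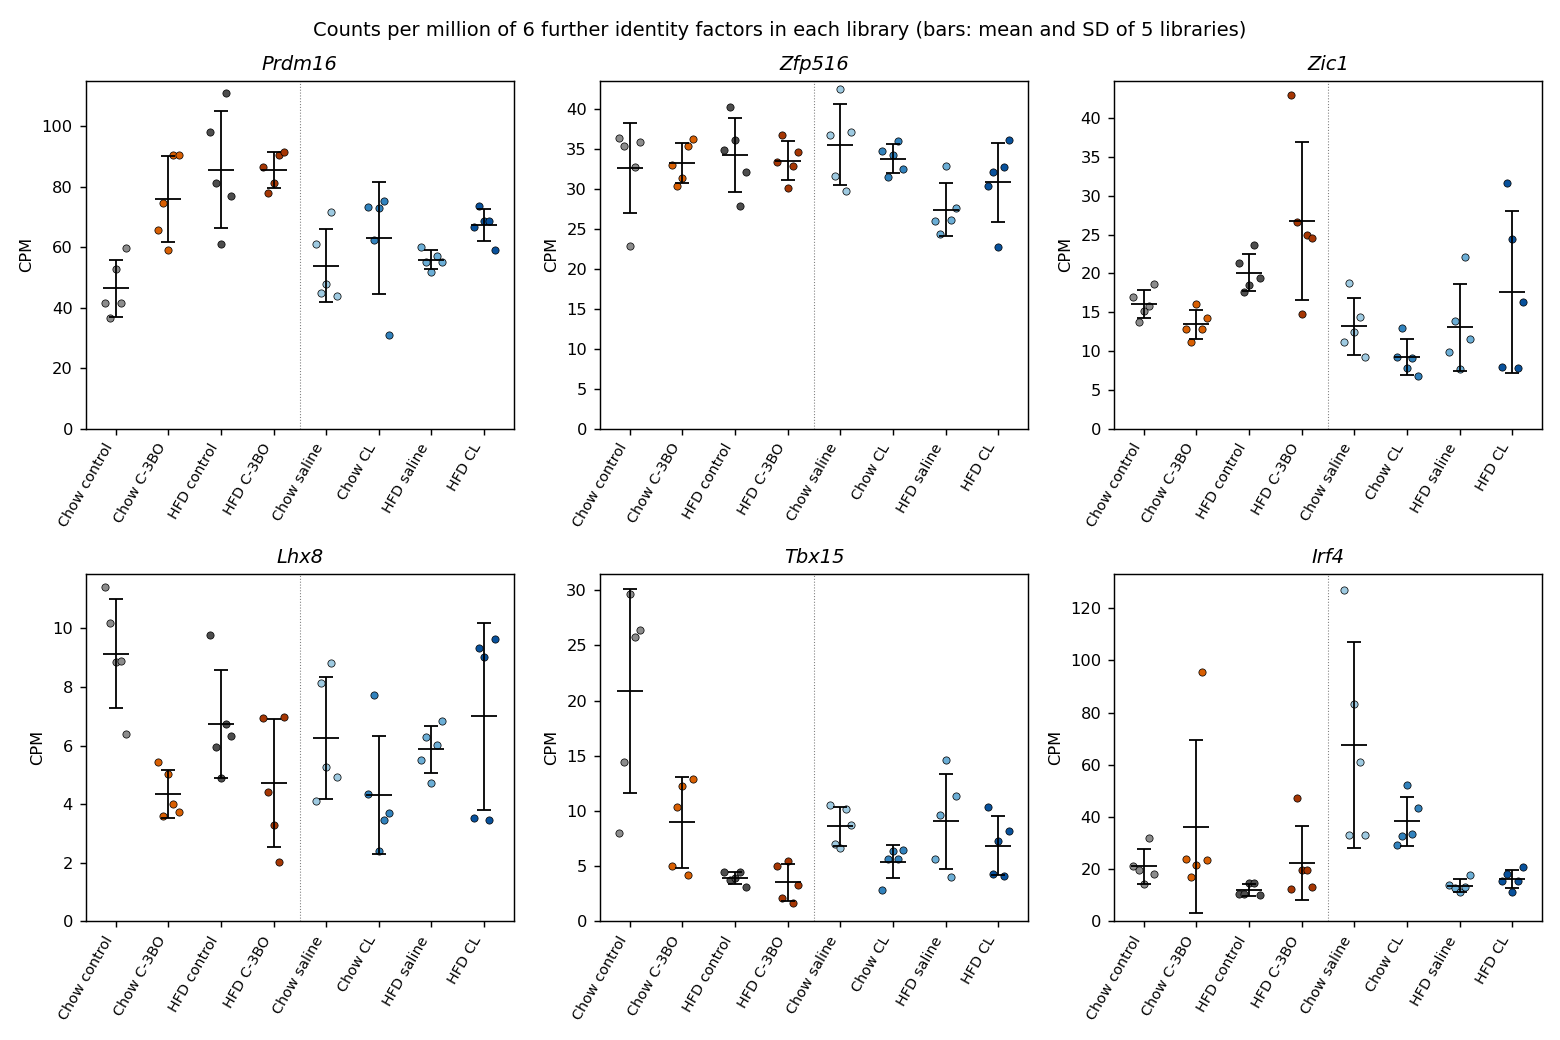
CPM (y axis, from 0) of *Prdm16*, *Zfp516*, *Zic1*, *Lhx8*, *Tbx15* and *Irf4* in each of the 5 libraries of the 8 groups (x axis), with a bar at the mean and error bars of 1 SD. *Tbx15* is highest in chow control (mean 20.8 CPM) and *Irf4* in chow saline mice (mean 67.4 CPM), and *Zfp516* keeps to means of 27.4 to 35.5 CPM.

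The effect of 7 days of HFD was the second question, since *Ucp1* rose on HFD in control mice by 1.98 ± 0.27 and in saline mice by 0.81 ± 0.26 on the log2 scale (edgeR adjusted p = 6.38e-07 and 0.0326). In control mice, 1 factor rose (*Prdm16*) and 1 fell (*Tbx15*), against 15.4% and 17.5% of all tested genes. In C-3BO mice, 1 rose (*Zic1*) and 1 fell (*Tbx15*), against 13.5% and 12.2%. In saline mice, 0 rose and 2 fell (*Irf4* and *Zfp516*), against 7.45% and 8.04%. In CL mice, 1 rose (*Zic1*) and 1 fell (*Irf4*), against 10.9% and 12.7%. No EBF gene passed the test in any of these 4 comparisons. With library totals alone the median of all genes was brought to 0.15, 0.21, 0.16 and 0.16, and the share of called genes that rose went from 46.9%, 52.6%, 48.1% and 46.1% to 71.2%, 81.8%, 84.8% and 79.7%. Under that scaling *Ebf2* and *Ebf3* rose with HFD in control and CL mice, and *Ebf1* and *Ebf2* in C-3BO mice.

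For *Ebf1* the log2 fold change with HFD was 0.08 ± 0.16 in control and -0.18 ± 0.16 in saline mice, with 95% intervals from -0.24 to 0.4 and from -0.5 to 0.14. For *Ebf3* it was 0.23 ± 0.12 and 0.05 ± 0.12, with intervals from -0.01 to 0.48 and from -0.2 to 0.3. These comparisons share their control and saline libraries with the treatment comparisons, in which *Ebf1* gave -0.85 to -0.52 and *Ebf3* 0.4 to 0.6.

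*Prdm16* rose by 0.89 ± 0.17 with HFD in control mice (edgeR adjusted p = 9.24e-05), and all 5 HFD controls, from 61 to 111 CPM, lay above all 5 chow controls, from 36.6 to 59.6 CPM. This comparison and that of C-3BO mice on chow share the chow control libraries. In C-3BO mice the value was 0.17 ± 0.17, and in saline and CL mice 0.05 ± 0.18 and 0.1 ± 0.17 (edgeR adjusted p = 0.513, 0.888 and 0.733).

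*Tbx15* fell by 2.39 ± 0.33 with HFD in control mice and by 1.31 ± 0.36 in C-3BO mice on the log2 scale (edgeR adjusted p = 8.25e-07 and 0.00641). All 5 HFD controls, at 4.46, 3.73, 3.91, 4.44 and 3.1 CPM, were below all chow controls. All 7 muscle markers fell as well in both of these comparisons, with a median log2 fold change of -6.93 and -6.08. The muscle sums of chow and HFD mice did not overlap, at 655 to 8480 against 4.61 to 178 CPM in control mice. In C-3BO mice they were 335 to 3240 against 4.53 to 61.2 CPM. A fit with this sum as a covariate therefore cannot tell diet from muscle transcripts here. In that fit, the log2 fold change of *Tbx15* was -1.54 in control mice (edgeR adjusted p = 0.0206) and -0.63 in C-3BO mice (edgeR adjusted p = 0.355), which ended the second call. It also ended without the shallow HFD C-3BO replicates 4 and 5 (-1.09 ± 0.41, edgeR adjusted p = 0.062). In saline and CL mice, where none of the muscle markers passed the test, *Tbx15* gave 0.18 ± 0.33 and 0.33 ± 0.35 (edgeR adjusted p = 0.779 and 0.535).

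*Zic1* rose with HFD in C-3BO mice and in CL mice. It lay at 12.8, 11.2, 16.1, 12.8 and 14.3 CPM in chow C-3BO mice and at 43, 26.6, 14.8, 24.9 and 24.6 CPM in HFD C-3BO mice, where only replicate 3 lay in the chow range, and the log2 fold change was 0.99 ± 0.27 (edgeR adjusted p = 0.00557). With the muscle sum as a covariate it was 0.63 and did not pass (edgeR adjusted p = 0.206). For *Zic1* too, that fit cannot tell diet from muscle transcripts in C-3BO mice. With CL, *Zic1* lay at 9.24, 13, 7.85, 9.08 and 6.82 CPM on chow and at 7.9, 31.6, 24.4, 7.76 and 16.3 CPM on HFD. Here 3 HFD mice were above all chow mice and 2 were among them, the log2 fold change was 0.93 ± 0.28 (edgeR adjusted p = 0.0135), and the call ended without HFD CL replicate 2 (edgeR adjusted p = 0.139). In control and saline mice the values were 0.33 ± 0.26 and -0.17 ± 0.29 (edgeR adjusted p = 0.349 and 0.744).

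*Irf4* fell with HFD in both injected groups. HFD saline mice, at 13.8, 12.6, 11.3, 13 and 17.8 CPM, and HFD CL mice, at 15.5, 18.3, 11.3, 15.5 and 20.7 CPM, all lay below every chow mouse with the same injection, the lowest of which were at 33 and 29.3 CPM. The log2 fold changes were -2.29 ± 0.4 and -1.22 ± 0.39 (edgeR adjusted p = 0.000192 and 0.0185). In the first cohort they were -0.82 ± 0.38 in control and -0.68 ± 0.37 in C-3BO mice and did not pass (edgeR adjusted p = 0.0921 and 0.184). The *Zfp516* fall in saline mice was small, at -0.37 ± 0.12 (edgeR adjusted p = 0.0309). It ended without chow saline replicate 1, 3 or 5 (edgeR adjusted p = 0.0675, 0.105 and 0.0571) and without HFD saline replicate 1, 2, 4 or 5 (0.0823, 0.117, 0.0535 and 0.0507). These falls in the injected cohort set the 10 shallow HFD libraries, which carry liver transcripts at 76.2 to 243 CPM, against 10 chow libraries with at most 2.02 CPM, and diet cannot be told apart from that.

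**Figure D4:**
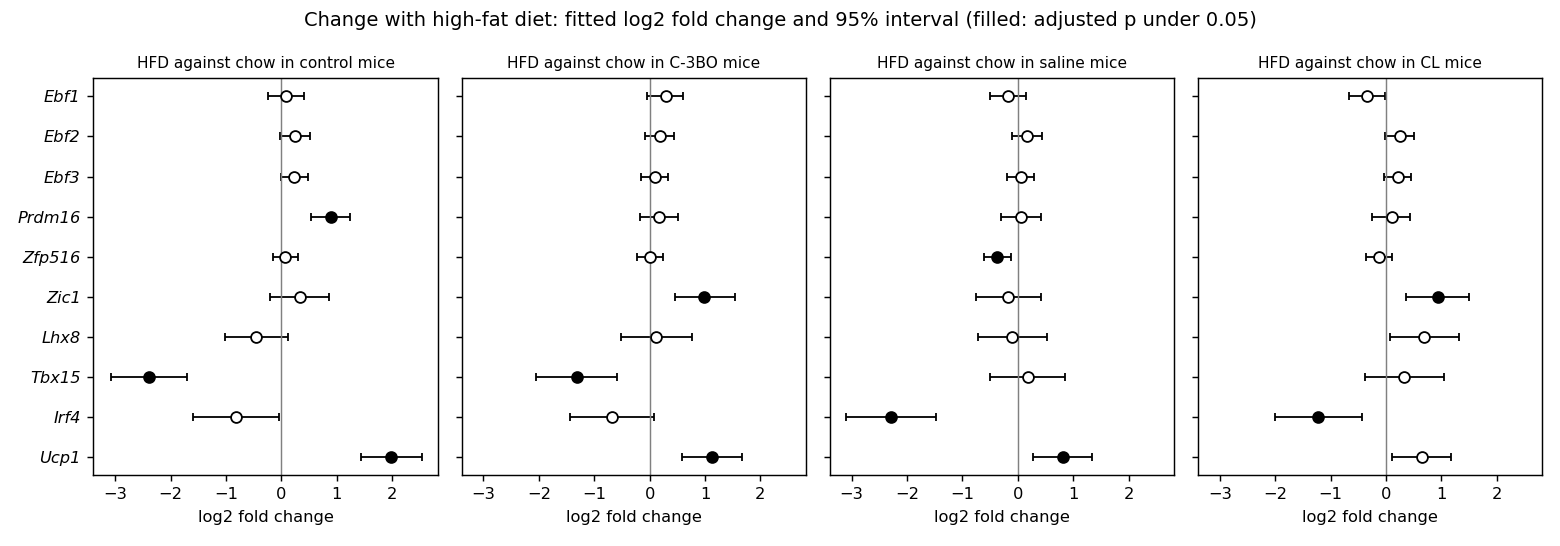
Fitted log2 fold change with HFD (x axis) of the 9 tested factors and *Ucp1* (y axis) in control, C-3BO, saline and CL mice, 5 against 5 libraries each, with 95% intervals and with filled points where the edgeR adjusted p is under 0.05. No EBF point is filled, and the largest changes are those of *Irf4* in saline mice (-2.29) and *Tbx15* in control mice (-2.39).

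The differences between effects were tested directly. For the diet dependence of the C-3BO effect, HFD minus chow, 0 of the 9 factors passed with edgeR, against 2.08% of all tested genes, and 2 had an unadjusted p under 0.05 (*Prdm16* and *Tbx15*). For the same difference of CL, 0 passed against 0.0151% of genes, and 1 had an unadjusted p under 0.05 (*Zic1*). When the effect of CL was subtracted from that of C-3BO, 0 passed on chow, against 6.24% of genes, with 2 at an unadjusted p under 0.05 (*Prdm16* and *Irf4*), and on HFD 0 passed, against 1.8%, with 0 at an unadjusted p under 0.05. DESeq2 called *Irf4* alone in the chow comparison of C-3BO with CL. For *Ebf1* this difference was -0.33 on chow, with a 95% interval from -0.78 to 0.12, and 0.03 on HFD, from -0.42 to 0.49. For *Ebf3* it was 0.2, from -0.14 to 0.55, and -0.1, from -0.45 to 0.25.

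Related genes were listed by role, and their counts are read against the shares of all tested genes. These were 15.8% rising and 15.9% falling with C-3BO on chow, 19.3% and 15.5% with C-3BO on HFD, 9.16% and 6.13% with CL on chow, and 12.7% and 10.8% with CL on HFD. Of 15 thermogenic genes, 7 rose and 1 fell with C-3BO on chow, 9 rose and 1 fell with C-3BO on HFD, and 8 and 9 rose and 0 fell with CL on chow and HFD. Their median log2 fold changes were 0.24, 0.64, 0.58 and 0.53, against -0.03 to -0.01 over all tested genes. *Elovl3*, a fatty acid elongase of active brown fat, rose from 31.2 to 480 CPM with C-3BO on chow and from 5.11 to 201 CPM with CL on chow. *Otop1*, a proton channel gene enriched in BAT, rose from 199 to 651 CPM with C-3BO on chow, and *Dio2*, the deiodinase that makes active thyroid hormone, from 23.3 to 68.6 CPM.

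Of 16 genes for known partners of PRDM16 and EBF2, 1 rose with C-3BO on chow, 2 rose and 3 fell with C-3BO on HFD, and 1 fell with CL on each diet. *Cebpb*, whose protein forms a complex with PRDM16, rose with C-3BO by 1.38 ± 0.26 on chow and 1.68 ± 0.26 on HFD but fell by 0.79 ± 0.25 with CL on chow (edgeR adjusted p = 7.62e-05, 3.13e-06 and 0.0285), and its C-3BO and CL effects differed by the test on both diets. *Ppargc1b*, a coactivator of mitochondrial genes, fell with C-3BO on HFD from 216 to 146 CPM and with CL on HFD from 159 to 87.2 CPM. *Pparg*, the master regulator of adipocytes, and *Cebpa* did not pass in any of the 4.

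Of 12 genes known to oppose the brown programme, 10 were tested. With C-3BO on chow 1 rose and 2 fell, on HFD 3 rose and 2 fell, and with CL 3 fell on chow and 2 on HFD, with 0 rising. *Twist1*, a repressor of PGC-1α targets, fell with C-3BO on both diets by 1.05 ± 0.21 on the log2 scale, and *Zfp423*, a zinc finger partner of EBF2 that restrains its action, rose from 21.6 to 30.3 CPM with C-3BO on chow. *Tle3*, a corepressor that favours the white programme, fell with CL from 73.7 to 42.4 CPM on chow and from 67.2 to 49.5 CPM on HFD.

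Of 8 early myogenic and dermomyotomal genes, 4 were tested. *Eya1*, a transcriptional coactivator of muscle precursors, fell with C-3BO on chow by 1.7 ± 0.41 on the log2 scale and also fell on HFD, where *En1* rose. Of 19 paralogues of the 10 factors, 16 were tested, and 6 fell and 0 rose with C-3BO on chow, while 7 fell and 2 rose on HFD and 1 fell with CL on each diet. *Irf7* and *Irf8*, interferon-response and myeloid factors, and *Lhx6*, a paralogue of *Lhx8*, fell with C-3BO on both diets. *Ebf4*, the remaining EBF gene, did not pass in any treatment comparison.

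**Figure D5:**
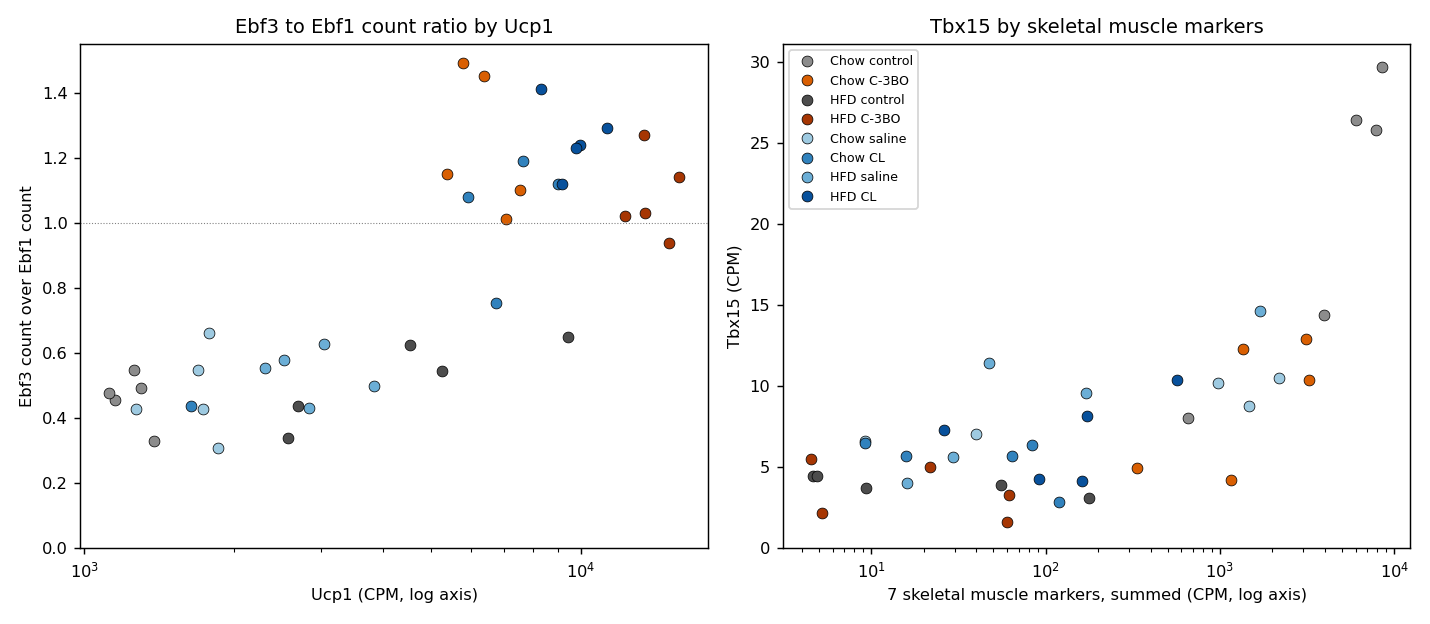
Left, the ratio of *Ebf3* to *Ebf1* counts (y axis) against *Ucp1* in CPM (x axis, log scale), and right, *Tbx15* in CPM (y axis) against the summed CPM of 7 skeletal muscle markers (x axis, log scale), 1 point per library in 8 groups. Control and saline libraries stay at ratios of 0.66 or less, and the 3 libraries with *Tbx15* above 20 CPM are chow controls with high muscle sums.

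The genes whose log2 CPM followed each factor most closely over the 40 libraries are given as a description. Each correlation is set beside its value after group means were taken out, since the groups form clusters and the points share library depth. *Ebf1* was followed by *Fermt2*, an integrin activator, with r = 0.868 and 0.663 around group means, *Syde1* (0.834 and 0.36) and *Umps* (0.831 and 0.544). *Ebf3* was followed by *Alox12*, a lipoxygenase (0.867 and 0.647), *Cat*, the catalase gene (0.86 and 0.482), and *Slc25a16* (0.859 and 0.567). *Ebf2* was followed by *Xrcc3* (0.755 and 0.567), and *Prdm16* by *Szrd1* (0.794 and 0.518), *Zdhhc5* (0.783 and 0.578) and *Spsb1* (0.761 and 0.484).

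The 3 genes closest to *Tbx15* were *Sgca*, *Bin1* and *Flnc*, all expressed in striated muscle, with r of 0.854, 0.838 and 0.828, and 0.698, 0.611 and 0.496 around group means. *Zic1* was followed most closely by *Zic4* (0.721 and 0.664), its neighbour on the opposite strand, then by *Tmem251* (0.686 and 0.574) and *Atp6v1c2* (0.62 and 0.251). *Irf4* was followed by *Tppp* (0.799 and 0.543), *D930015E06Rik* (0.771 and 0.57) and *Irs1*, an insulin receptor substrate gene (0.754 and 0.487). *Lhx8*, with *Prrx1* (0.607 and 0.465), *Bzw2* (0.599 and 0.373) and *Il17re* (0.585 and 0.391), and *Zfp516*, with *Zbtb43* (0.664 and 0.591), *Ccdc159* (0.655 and 0.613) and *Crebbp* (0.645 and 0.528), had the weakest companions.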

How the data were processed

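Poly(A) RNA of BAT from 40 mice was prepared by the authors with TruSeq reagents and sequenced on a HiSeq 1500. Reads were aligned to mm9 with STAR, HOMER tag directories were made, and exon reads were counted per RefSeq gene with iRNA-seq. Versions, strandedness and filters were not given in the sources used here. The deposited values are whole, unnormalised counts per gene and mouse, and 0 columns of samples outside the list were present. The authors also deposited the exon bases counted per gene, used here for levels per kilobase.

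Genes were kept with filterByExpr of edgeR 4.0.16 (minimum count 10, 13277 of 20295 genes), scaled by TMM factors and fitted with 1 mean per group over all 40 libraries. Quasi-likelihood tests were adjusted over all tested genes by Benjamini and Hochberg, at 0.05. The authors used DESeq2 (here 1.42.0, as an alternative) with a log2 fold change limit of 1, which is counted beside the main call. Standard errors are the size of a log2 fold change over the square root of F. The labels do not say that replicate numbers pair the mice, and the main fits carry no block. With C-3BO on each diet, 3 of 5 same-numbered libraries were closest to their own number. A replicate block was therefore fitted as an alternative. The edgeR step was checked on simulated counts. Scripts ran in R 4.3.3 (limma 3.58.1) and Python 3.11.15, with figures drawn by matplotlib 3.10.9.

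All 10 factors were named in each comparison, up to 4 called genes of each list by size, *Ucp1*, defining markers, and for each factor the 3 genes with the highest Pearson correlation of log2 CPM (prior count 2) over 40 libraries. In the text, fewer of these are given than the rule allows, and some genes it names are not reported here. *Ebf4*, *Pparg* and *Cebpa*, not called, were named after their values were seen, as was *Gpr3* as the check of the transgene. The factors, lists and tests were chosen with earlier results of these data known. Alternatives were library totals, RLE factors, other filters, DESeq2, the libraries of a comparison alone, a replicate block, leaving out HFD C-3BO replicates 4 and 5, and leaving out each library. The muscle covariate was added after the data were seen. The limit of 3 counts covers counting error only. Upstream windows were read from the NCBIM37 assembly (mm9) at the positions of the deposited table, whose genes all lie within its chromosomes, and exon overlaps and transcripts from GENCODE vM1 on the same assembly. Other tissues and measurements of the study were not analysed here.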

Additional observations from a re-analysis of the deposited data

Results flagged for a closer look

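In 6 of the 80 combinations of a factor and a group, 1 library lay far from the other 4, with a gap to its nearest neighbour above 0.71 of the range of the group. Chance gives about 1 in 20, or 4 of 80. *Ebf1* was at 185 CPM in HFD C-3BO replicate 1 against 118 to 136 CPM in the other 4 mice, the library that reached into the range of its controls. *Irf4* was at 95.5 CPM in chow C-3BO replicate 4 against 16.8 to 24 CPM, and at 47.1 CPM in HFD C-3BO replicate 2 against 12.5 to 19.6 CPM. *Tbx15* was at 2.85 CPM in chow CL replicate 1, on 29 counts, against 5.69 to 6.47 CPM. *Tbx1* was at 1.46 CPM in HFD saline replicate 3, on 12 counts, against 0 to 0.275 CPM. *Zfp516* was at 22.9 CPM in chow control replicate 3 against 32.7 to 36.3 CPM.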

How the results depend on the processing

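Of 793 values of single factors under an alternative, 735 kept their direction and side of the threshold, 31 lost the call, 13 gained it and 14 changed sign. The fall of *Ebf1* and the rise of *Ebf3* held under every alternative run with C-3BO on both diets and with CL on HFD, and each was lost in 6 of 18 alternatives with CL on chow. The number of factors called was 1 with library totals, 0 with the libraries of the comparison alone and 1 with a replicate block for CL on chow. It was 4 with the libraries of the comparison alone for C-3BO on HFD. For HFD it was 4 with library totals, 1 with at least 10 counts in every library, where *Tbx15* was not tested, and 4 with the comparison alone in control mice. In C-3BO mice it was 4 with library totals, 1 with at least 10 counts, 1 without replicates 4 and 5 and 0 with the muscle covariate. In saline mice it was 1 with library totals, with the comparison alone and with the replicate block, and in CL mice 5 with library totals. For C-3BO minus CL on chow it was 1, *Irf4*, with RLE factors, no filter, at least 10 counts and DESeq2. The cause of these differences was not tested.

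Without single libraries the number called ranged from 5 to 6, 2 to 3, 0 to 2 and 2 to 3 in the treatment comparisons, from 2 to 2, 2 to 3, 1 to 2 and 1 to 3 for HFD, and from 0 to 1 for C-3BO minus CL on chow. In the other 3 differences of effects it was 0 to 0. Same-numbered libraries correlated above 0.1 in 3, 1, 1 and 0 of 5 pairs, with 3, 3, 1 and 1 of 5 closest to their own number. The replicate block gave 6 and 2 called for C-3BO on chow and CL on HFD, 3 for C-3BO on HFD with *Irf4* added, and with CL on chow kept neither *Ebf1* (edgeR adjusted p = 0.174) nor *Ebf3* (0.0839) but called *Zic1* (0.0416).

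All signs that changed belonged to values of 0.14 or less that were not called. *Zfp516* with C-3BO on chow gave -0.17 with library totals, 0 with at least 10 counts, and -0.08 to 0.09 without single libraries. On HFD *Zfp516* gave -0.09 to 0.03 without single libraries. *Prdm16* with C-3BO on HFD gave 0.02 with the block and -0.1 to 0.11 without single libraries. *Tbx15* there gave 0.08 without C-3BO replicates 4 and 5, and -0.37 to 0.02 without single libraries. Depth limits *Tbx1* most, with at most 12 counts in a library, and it was called with no filter and with DESeq2 for HFD in control mice, which made 3 factors called there.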
